A study of Arabidopsis thaliana with 4 samples.

Results

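Transcripts of 10 *Arabidopsis thaliana* genes of glycolate oxidation and photorespiration were measured in seedlings exposed to the microbial volatile organic compounds (mVOCs) of the plant pathogenic bacterium *Erwinia amylovora* and in unexposed control seedlings. The genes were chosen by function and found on the array by their locus identifiers, as the loci of *GOX1*, *GOX2*, *GOX3*, *HAOX1*, *HAOX2*, *GLDP1*, *SHM1*, *HPR1*, *AGT* and *GGT1*. All 10 loci were on the array, with 25 of the 43603 probes and 10 of the 29030 loci measured. The mVOC-exposed and the control samples were whole Col0 seedlings, roots and shoots together, 7 days old, from plates divided into a compartment for plants and another for bacteria, so that they shared only the air. Exposure lasted 16 h, and the controls grew without the bacterium. The study had 4 biological replicates, each a two-colour array with the mVOC-exposed sample in the Cy5 channel and the control sample in the Cy3 channel. Because the dyes were never exchanged, an effect of the dye and an effect of exposure cannot be told apart for any probe, and because roots and shoots were extracted together, fewer cells of a type and less RNA per cell cannot be told apart either.

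Photorespiration begins when Rubisco binds oxygen in place of carbon dioxide and forms phosphoglycolate, which the chloroplast converts into glycolate. In the peroxisome, glycolate oxidase turns glycolate into glyoxylate and releases hydrogen peroxide, and aminotransferases convert the glyoxylate into glycine. The mitochondrion joins glycine molecules into serine with loss of carbon dioxide and ammonia, and the carbon returns to the chloroplast as glycerate. The pathway is a prominent activity of green leaves, and glycolate oxidase is one of their main sources of hydrogen peroxide.

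The *GOX2* locus had 2 probes, A_84_P17007 and A_84_P860874, and their values differed in kind. The second is the probe through which the study selected *GOX2* as a responding gene, on these same samples, and its sequence is shown because the reading of *GOX2* turns on which probe is read. It was the only 1 of the 25 probes for which a sequence was at hand, with 60 bases and a GC content of 43.3%, for a gene of chromosome 3. It is written 5′ to 3′ and no part of it is in capitals, since no motif was searched in it.
A_84_P860874: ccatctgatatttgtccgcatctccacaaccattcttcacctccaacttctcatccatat
*GOX1* and *GOX2* are neighbours on chromosome 3 with 0 annotated genes between them, and *HAOX1* and *HAOX2* lie on the same chromosome with 2 genes between them (gene order of RefSeq, assembly TAIR10.1). These genes are similar in sequence, and how far a probe of one binds transcripts of another was not tested.

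Across arrays, the median spot intensity ranged from 394 to 460 units in the mVOC-exposed channel and from 344.5 to 413 in the control channel, over a local background of 55 to 56 and of 52.5 to 55. Between 74.6% and 78.8% of spots were well above background in mVOC-exposed samples and between 74.2% and 76.4% in control samples, and 0 spots were saturated. The 4 arrays lay on 2 slides, replicates 1 and 2 on one, replicates 3 and 4 on the other. Replicate 4 stood apart in that its log2 ratios over all probes had an SD of 0.112, against 0.155 to 0.187 on the other arrays, and in that it alone had spots, 8 in number, with a local background over 100 units. With 4 arrays, the precision of each mean is limited by their number.

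For each probe, the log2 ratio of mVOC-exposed over control was computed on each array after background correction and loess normalization, and limma was used to ask whether the mean over arrays departed from 0, with p adjusted over all probes (Benjamini-Hochberg). Over the whole array, 18.2% of probes had an adjusted p below 0.05, 9.62% higher and 8.58% lower in mVOC-exposed seedlings. Of the 25 probes of the photorespiration genes, 5 (20%) passed, 3 of them higher and 2 lower, and 10 had an unadjusted p below 0.05. That share is close to the share over all probes. Their log2 ratios lay between -0.21 and 0.25 with a median of -0.0057, and 0 of them reached a change of 2-fold, as did 15 probes of the whole array. The 3 probes that rose all belonged to *GOX1*, and the 2 that fell belonged to *AGT* and *GGT1*. With the probes of each locus averaged, 1 of the 10 loci passed, *GOX1*, against 17.3% of all loci (9.33% higher and 7.96% lower), and the median over the 10 was 0.012.

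**Figure D1:**
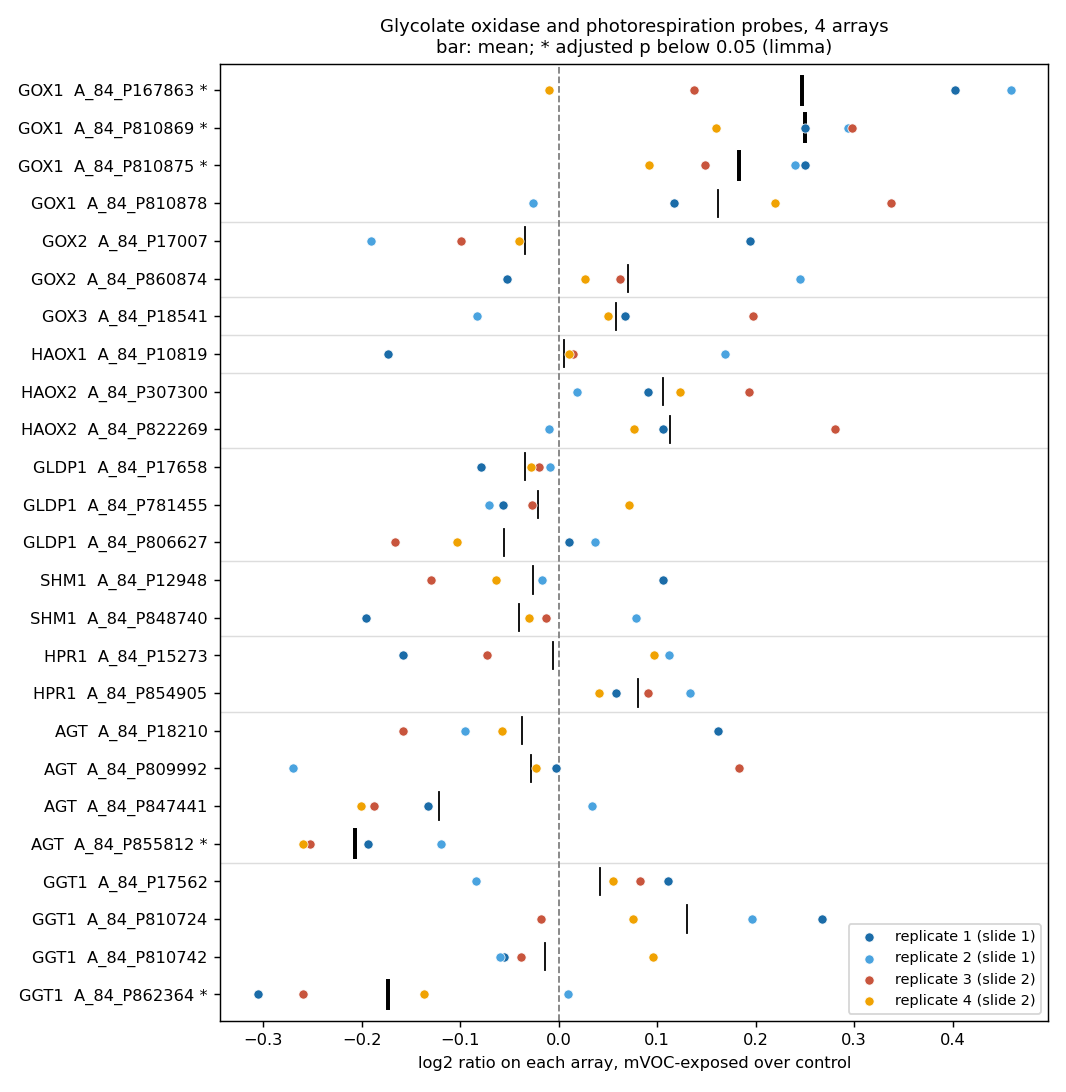
Log2 ratio of mVOC-exposed over control seedlings (horizontal axis) on each of the 4 arrays for the 25 probes (rows), grouped by gene, with a bar at the mean and an asterisk where the adjusted p was below 0.05. The *GOX1* probes lie to the right of 0 on nearly every array, whereas the probes of *GLDP1*, *SHM1* and *HPR1* scatter around 0.

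*GOX1* (AT3G14420), which encodes a peroxisomal glycolate oxidase of photorespiration, was the member with the clearest difference, a rise of 0.21 ± 0.064 on the log2 scale over its 4 probes (SD, n = 4 arrays), or 1.16-fold, with an adjusted p of 0.00635 in limma over all loci. Array by array, the log2 ratio of the locus was 0.26, 0.24, 0.23 and 0.12 for replicates 1 to 4, higher in mVOC-exposed seedlings in 4 of 4. The rise was smallest in replicate 4, the array with the smallest SD of log2 ratios over all probes. The call held with each replicate left out (adjusted p from 0.0143 to 0.037) and was lost, at the same sign, with plain background subtraction (0.0511), with normexp without offset (0.102), with the ordinary test (0.12) and on replicates 3 and 4 alone (0.0506).

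Probe A_84_P810869, annotated to transcript AT3G14420.2, had median intensities of 837, 721.5, 918.5 and 731.5 units in mVOC-exposed seedlings, against 628.5, 497.5, 624 and 514 in control seedlings (replicates 1 to 4, before normalization). The groups did not overlap, but the Cy5 channel had the higher median over all spots on each of the 4 arrays. The share of all probes that separate in this way was not counted. After normalization the log2 ratios of A_84_P810869 were 0.25, 0.29, 0.30 and 0.16, with a mean of 0.25 ± 0.064 (SD, n = 4, adjusted p = 0.00227 in limma). This was the *GOX1* probe whose call held most often, with an adjusted p below 0.05 under 17 of 19 other processing settings, and it was higher in mVOC-exposed seedlings under all 19. The exceptions were the normexp background model with no offset (0.0986) and the ordinary test, which uses the spread of each probe alone (0.117).

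Probe A_84_P810875, annotated to AT3G14420.6, read 102571, 81018, 97663 and 86461 units in mVOC-exposed seedlings and 60023, 45270.4, 55924 and 48926 in control seedlings. Its log2 ratios of 0.25, 0.24, 0.15 and 0.092 were all above 0, with a mean of 0.18 ± 0.076 (SD, n = 4, adjusted p = 0.0147 in limma). Without replicate 1 the mean was 0.16 and the adjusted p 0.0864.

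Probe A_84_P167863, annotated to AT3G14420.1, read 72733, 63236, 69585 and 59341.5 units in mVOC-exposed seedlings and 39505.5, 31109, 41410 and 37119 in control seedlings. Its log2 ratios were 0.40, 0.46, 0.14 and -0.010, so the slide with replicates 1 and 2 carried most of its mean of 0.25 ± 0.22 (SD, n = 4, adjusted p = 0.023 in limma). The mean was 0.43 on the slide of replicates 1 and 2 alone, and 0.064 on the slide of replicates 3 and 4 alone (adjusted p = 0.566). Without replicate 1 it was 0.20 (adjusted p = 0.133), and without replicate 2 it was 0.18 (adjusted p = 0.088). The probe was called under 11 of 19 other settings.

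The fourth *GOX1* probe, A_84_P810878 (AT3G14420.3), showed the opposite split between slides. It read 17373.5, 14995, 17676 and 16775 units in mVOC-exposed seedlings, against 12726, 11356, 10390.5 and 9961 in control seedlings. Its log2 ratios were 0.12, -0.026, 0.34 and 0.22, and the mean of 0.16 ± 0.15 missed the threshold (SD, n = 4, adjusted p = 0.061 in limma). It passed under 6 of 19 other settings, among them replicates 3 and 4 alone (0.28, adjusted p = 0.00144) and without replicate 2 (0.22, adjusted p = 0.0129).

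*GOX2* (AT3G14415) encodes the other main leaf glycolate oxidase, a close relative of *GOX1*. Its probe A_84_P17007 gave a strong signal, with median intensities of 49208, 39562, 53262 and 46830 units in mVOC-exposed seedlings and 31646, 31109, 37979 and 30486 in control seedlings. Before normalization these groups did not overlap, yet bright probes in general were brighter in the Cy5 channel, and after loess the log2 ratios were 0.19, -0.19, -0.099 and -0.040, higher on 1 of 4 arrays. The mean was -0.034 ± 0.16 (SD, n = 4, 95% interval -0.16 to 0.090, adjusted p = 0.731 in limma).

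The study's selected probe, A_84_P860874, read 68, 75, 67 and 69 units in mVOC-exposed seedlings, over a local background of 57, 52, 56 and 54. In control seedlings it read 78, 80, 76 and 64 units, over a local background of 52, 56, 55 and 52.5. Before normalization the control sample was thus the brighter one in replicates 1 to 3. The probe was well above background in 1 of 4 mVOC-exposed samples and in 0 of 4 control samples. Its log2 ratios were -0.053, 0.25, 0.063 and 0.027 after normexp and loess, with a mean of 0.071 ± 0.13 (SD, n = 4, adjusted p = 0.379 in limma). No size of a difference can be given for a probe this close to background, since the control group was not well above background on any array.

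The ratio that the scanner software computed for the same spot was of another size. After its own background subtraction and dye normalization the software left 6.54, 8.1, 4.12 and 6.43 units in mVOC-exposed seedlings and 2.92, 2.62, 2.16 and 1.79 in control seedlings, out of raw readings of 64 to 80. The resulting log2 ratios were 1.16, 1.63, 0.93 and 1.84, a mean of 1.39 or 2.62-fold (adjusted p = 0.0176 when tested with limma over all probes). Plain subtraction of the local background followed by loess gave a mean of 0.71 (adjusted p = 0.181), normexp with no offset 0.22 (adjusted p = 0.428), and centring on the array median, without loess, turned the sign to -0.13 (adjusted p = 0.195). Over the whole array, the software's mean ratio passed 2-fold for 0.189% of the 31780 probes well above background in all 8 readings, for 1.7% of the 8351 above it in 0 readings, and for 11.7% of the 3472 above it in 1 to 7 readings, the class of A_84_P860874. For A_84_P17007 the software's log2 ratio averaged -0.070 (adjusted p = 0.386), so the 2 probes of the locus differed in sign and in size under that processing.

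**Figure D2:**
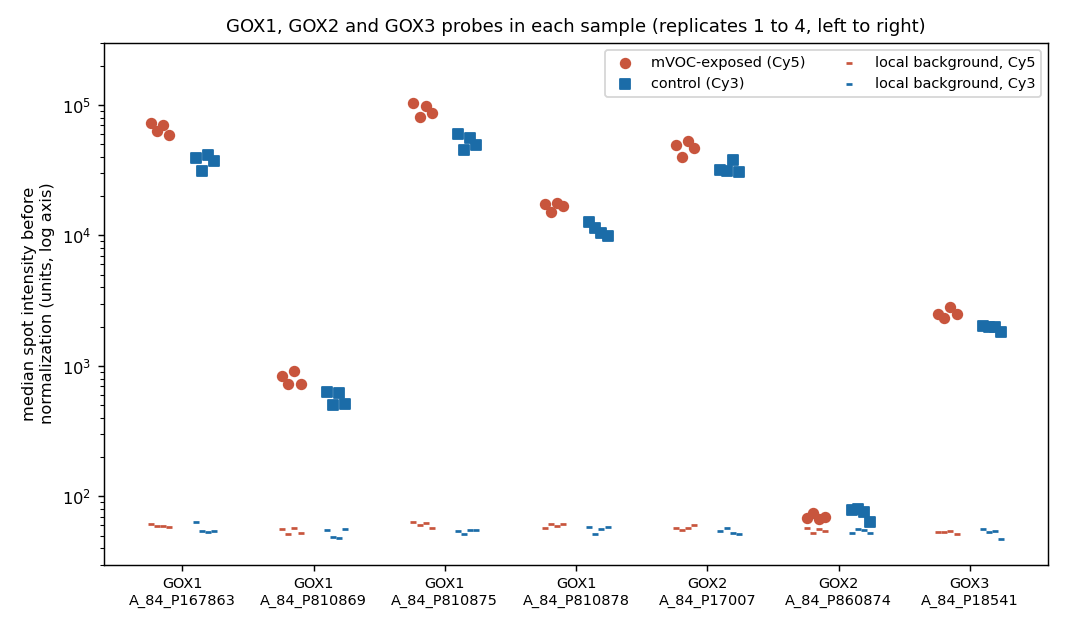
Median spot intensity before normalization, in scanner units on a log axis, of each *GOX1*, *GOX2* and *GOX3* probe in the mVOC-exposed (Cy5) and control (Cy3) sample of each of the 4 arrays, with the local background as dashes. The *GOX2* probe A_84_P860874 lies between 64 and 80 units, just over its background of 52 to 57, while the other *GOX2* probe reads 30486 units or more.

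Between the neighbours *GOX1* and *GOX2*, the difference in response was set out on the bright *GOX2* probe, a comparison picked with the values in view. The log2 ratio of the *GOX1* locus exceeded that of A_84_P17007 by 0.061, 0.43, 0.33 and 0.16 in replicates 1 to 4, on average by 0.24 ± 0.17 (SD, n = 4), and was the higher one in 4 of 4. An exact two-sided permutation test over the signs of the 4 arrays gave p = 0.125, the smallest that 4 arrays allow. Under every other setting tried the mean difference stayed between 0.15 and 0.31.

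**Figure D3:**
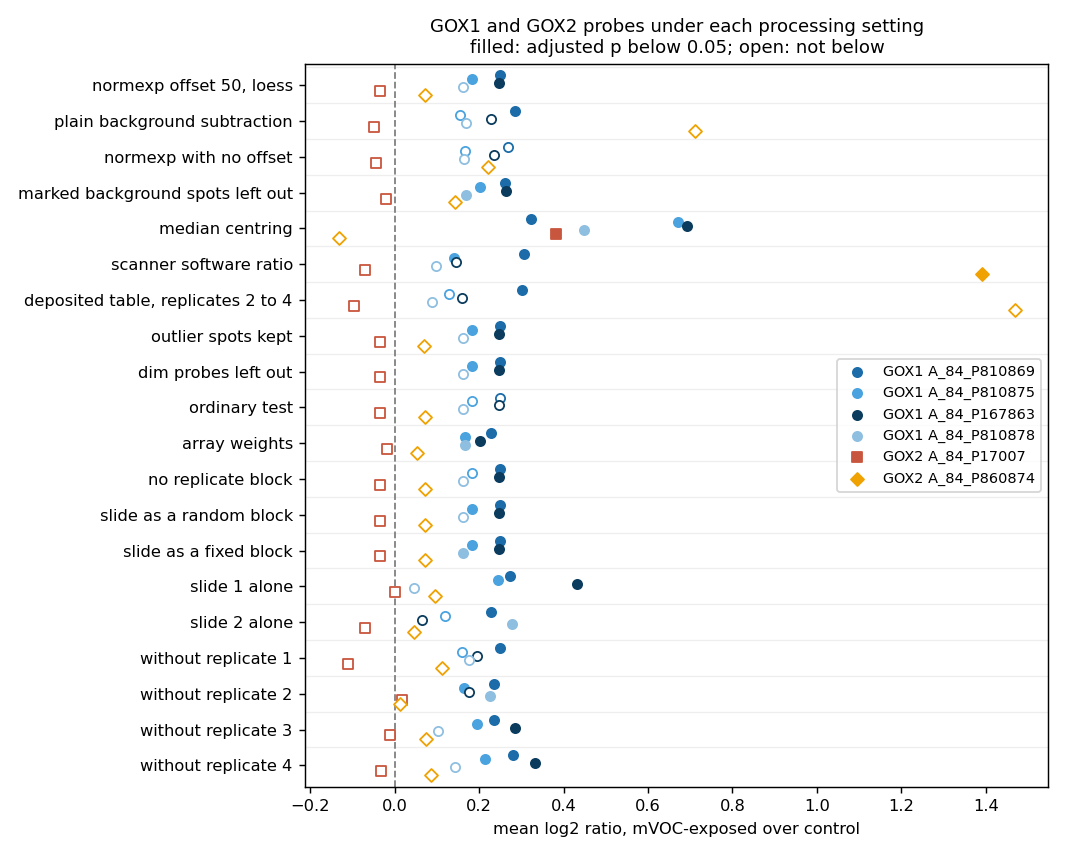
Mean log2 ratio of mVOC-exposed over control (horizontal axis) for the 4 *GOX1* and 2 *GOX2* probes under each processing setting (rows), filled where the adjusted p was below 0.05. The *GOX1* probes stay to the right of 0 in all rows, and the *GOX2* probe A_84_P860874 runs from -0.13 under median centring to 1.47 in the deposited table.

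The remaining members of the oxidase family did not pass the test. *GOX3* (AT4G18360), whose product oxidises lactate in roots, had 2476, 2313, 2829.5 and 2491 units in mVOC-exposed seedlings and 2032, 1974, 1988.5 and 1833.5 in control seedlings on its single probe. Its log2 ratio was 0.058 ± 0.11 (adjusted p = 0.461 in limma, n = 4, SD), with a sign that turned under the software's ratio (-0.0080). *HAOX1* and *HAOX2* encode oxidases that act on longer hydroxy acids. *HAOX1* (AT3G14130) was dim but above background in all 8 readings, with 122, 129, 138 and 126 units in mVOC-exposed seedlings and 140, 117, 131 and 114 in control seedlings, groups that overlapped, and its log2 ratio averaged 0.0052 ± 0.14 over the 4 arrays, with an adjusted p of 0.96.

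*HAOX2* (AT3G14150) had 2 probes with like values. A_84_P307300 read 4860, 4195, 5354 and 4583 units in mVOC-exposed seedlings and 3847.5, 3284, 3700 and 3132.5 in control seedlings, with log2 ratios of 0.090, 0.019, 0.19 and 0.12, higher on 4 of 4 arrays. The means were 0.11 for each of A_84_P307300 and A_84_P822269, with SDs of 0.072 and 0.12 (n = 4) and adjusted p of 0.123 and 0.146 in limma. Neither passed, although both had an unadjusted p below 0.05 (0.0346 and 0.0444).

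Both peroxisomal aminotransferases that make glycine from glyoxylate had 4 probes, of which 1 passed in each gene. *AGT* (AT2G13360) encodes the serine:glyoxylate aminotransferase. Its probe A_84_P855812 read 13702, 11450, 15229 and 11845 units in mVOC-exposed seedlings and 12551, 9397, 13420 and 10034 in control seedlings. After loess its log2 ratios were -0.19, -0.12, -0.25 and -0.26, lower in mVOC-exposed seedlings on 4 of 4 arrays, and it fell by 0.21 ± 0.065 on the log2 scale (SD, n = 4, adjusted p = 0.00683 in limma), a fold of 0.867. The lower sign depends on the normalization, since the raw intensities were higher in mVOC-exposed seedlings on every array, and median centring gave 0.069 (adjusted p = 0.518). The call held when each replicate was left out, with adjusted p from 0.00626 to 0.048, and was lost in 7 of 19 other settings. Besides median centring these were plain background subtraction (0.0645), normexp without offset (0.12), the ordinary test (0.137), the deposited table (0.0525), replicates 1 and 2 alone (0.0928) and the test without pairing (0.0709), all at a lower level in mVOC-exposed seedlings.

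The other *AGT* probes did not pass. A_84_P847441 was at -0.12 ± 0.11 in its mean log2 ratio (SD, n = 4, adjusted p = 0.107 in limma), A_84_P18210 one of -0.037 ± 0.14 and A_84_P809992 one of -0.028 ± 0.19. All 4 carry the same transcript identifier, AT2G13360.1. Averaged over them, the locus was at -0.098 ± 0.040 and lower on 4 of 4 arrays, with an adjusted p of 0.0975 over all loci.

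*GGT1* (AT1G23310) encodes the glutamate:glyoxylate aminotransferase. Its probe A_84_P862364, annotated to AT1G23310.2, read 46286, 50731, 50969 and 52114.5 units in mVOC-exposed seedlings and 41725, 34244, 40566.5 and 35866 in control seedlings. The log2 ratios were -0.31, 0.0097, -0.26 and -0.14, and their mean fell by 0.17 ± 0.14 (SD, n = 4, adjusted p = 0.0404 in limma). The call was lost without replicate 1 (-0.13, adjusted p = 0.211), without replicate 3 (-0.14, adjusted p = 0.126) or without replicate 4 (-0.18, adjusted p = 0.091), at the same sign. It was also lost, at that sign, with plain background subtraction (0.142), with normexp without offset (0.184), with the deposited table (0.135) and with the ordinary test (0.291), among others. Median centring turned the value to 0.26 (adjusted p = 0.0118). Of 19 other settings the probe was called under 8, median centring included.

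On the other transcript of *GGT1*, AT1G23310.1, probe A_84_P810724 was at 0.13 ± 0.13 in its mean log2 ratio (SD, n = 4, adjusted p = 0.0999 in limma), which passed without replicate 3 (0.18, adjusted p = 0.035), and A_84_P17562 one of 0.041 ± 0.086. The second probe of AT1G23310.2, A_84_P810742, was at -0.014 ± 0.074. The 4 probes thus ran from -0.17 to 0.13, and the mean of the locus was -0.0038 ± 0.037, the member locus nearest to 0.

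The mitochondrial and later peroxisomal steps showed no probe past the threshold. *GLDP1* (AT4G33010) encodes the P protein of glycine decarboxylase, the subunit that removes the carboxyl group of glycine. Its 3 probes had mean log2 ratios of -0.034, -0.021 and -0.056, and the locus was at -0.037 ± 0.026 (SD, n = 4, 95% interval -0.12 to 0.044, adjusted p = 0.527 in limma). *SHM1* (AT4G37930) encodes the mitochondrial serine hydroxymethyltransferase that works with it. Its probes were at -0.026 ± 0.099 and -0.040 ± 0.11, and the interval of the locus ran from -0.12 to 0.050.

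*HPR1* (AT1G68010) encodes the hydroxypyruvate reductase that forms glycerate in the peroxisome, and its 2 probes, both annotated to AT1G68010.1, were at -0.0057 ± 0.13 and 0.081 ± 0.040 (SD, n = 4, adjusted p = 0.956 and 0.217 in limma). The second, A_84_P854905, was higher on 4 of 4 arrays, with log2 ratios from 0.041 to 0.13, and read 12710 to 14382 units in mVOC-exposed seedlings against 8747 to 10409 in control seedlings. For the loci of *GLDP1*, *SHM1* and *HPR1*, the 95% intervals of the log2 ratio reached no further than -0.12 on the lower side and 0.13 on the upper side.

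How bright the probes were bears on each of these directions. In mean intensity before normalization, 15 of the 25 probes exceeded 10000 units, a class with 2575 of the 43603 probes of the array. With the arrays only centred on their median, the median log2 ratio over all probes was 0.33 in that class, 0.17 for probes of 1000 to 10000 units, -0.0030 for those of 100 to 1000 units and -0.21 below 100 units. After loess it lay between -0.0047 and 0.0054 in each of these classes. Under median centring 18 of the 25 probes were called, all 18 higher in mVOC-exposed seedlings, and 15 changed sign. Of all probes, 39.4% were called under that setting. Several members of the brightest class, which has no upper limit, stood above its median there, and others stood below it. The *GOX1* probes were at 0.69 (A_84_P167863), 0.67 (A_84_P810875) and 0.45 (A_84_P810878), the *GGT1* probes A_84_P810724 and A_84_P17562 at 0.63 and 0.54, *SHM1* A_84_P12948 at 0.47, *AGT* A_84_P18210 at 0.45 and *HPR1* A_84_P15273 at 0.45. *GOX2* A_84_P17007 was at 0.38 (adjusted p = 0.000125 in limma) and *HPR1* A_84_P854905 at 0.35. Below the median of the class were *AGT* A_84_P855812 and A_84_P847441 at 0.069 and 0.14. The same held for *GLDP1* A_84_P17658 and A_84_P781455 at 0.25 and 0.26, and for *GGT1* A_84_P862364 at 0.26. Whether the trend with brightness belongs to the dyes or to the seedlings was not tested.

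The rest of the pathway was followed on 26 further loci, from phosphoglycolate phosphatase to the carriers and the enzymes that remove hydrogen peroxide and ammonia. Of these, 8 (30.8%) passed at the level of loci, against 17.3% of all loci, with 6 higher and 2 lower in mVOC-exposed seedlings, and 13 had an unadjusted p below 0.05. The median over the 26 was 0.015, against 0.0029 over all loci. The largest rise was that of *CAT2*, the leaf catalase that removes the hydrogen peroxide made by glycolate oxidase, with log2 ratios of 0.24, 0.13, 0.49 and 0.37 and a mean of 0.31 ± 0.15 (SD, n = 4, adjusted p = 0.00472 in limma). *CAT2* was called with any of the replicates left out, with adjusted p from 0.00258 to 0.0276. It was not called with plain background subtraction (0.0683), with normexp without offset (0.117), with the ordinary test (0.185) or on replicates 1 and 2 alone (0.0571). Under these settings 0 of the 26 loci passed, against 8.04%, 0.00344%, 0.0586% and 11% of all loci in the same order.

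The other loci that rose were *PLGG1*, the chloroplast glycolate and glycerate carrier, at 0.23 ± 0.21 (SD, n = 4, adjusted p = 0.0385 in limma), *PGLP1A*, the phosphoglycolate phosphatase that makes glycolate, at 0.16 ± 0.034, *DIT1*, a chloroplast dicarboxylate carrier, at 0.16 ± 0.084, *GLDP2*, the second P protein of glycine decarboxylase, at 0.15 ± 0.012, and *GDCH1*, its H protein, at 0.13 ± 0.061. All 6 were higher on 4 of 4 arrays. Of the loci that passed, higher or lower, each rested on 1 probe except *GLDP2*. The 3 probes of *GLDP2* differed, with means of 0.24 (A_84_P806618) and 0.22 (A_84_P802894), both called, and of -0.016 for A_84_P14502 (adjusted p = 0.84 in limma). Those that fell were *DIT2.1*, the chloroplast carrier that exchanges glutamate and malate, by 0.20 ± 0.092 (adjusted p = 0.0119 in limma), and *SHM2*, the paralog of *SHM1*, by 0.16 ± 0.034 (adjusted p = 0.0169), both lower on 4 of 4 arrays. Under median centring these 2 turned to 0.045 and 0.016.

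With 3 arrays fewer of these loci passed, while their log2 ratios kept their sign. Leaving out replicates 1 to 4 in turn left 3, 5, 5 and 2 calls, against 8.79%, 13.4%, 11.4% and 10.9% of all loci. Only *CAT2* and *DIT2.1* held throughout. The log2 ratios with a replicate left out ran from 0.14 to 0.17 for *PGLP1A*, 0.14 to 0.15 for *GLDP2*, 0.11 to 0.16 for *GDCH1*, 0.12 to 0.19 for *DIT1* and -0.17 to -0.14 for *SHM2*, and more widely, from 0.14 to 0.30, for *PLGG1*. *PGLP1A* was lost without replicate 1 (adjusted p = 0.0596) or 4 (0.0835), *SHM2* without replicate 1 (0.0536) or 4 (0.0583), and *GLDP2* without replicate 1 (0.0705), 2 (0.0552) or 4 (0.0795). *PLGG1* was lost without replicate 1 (0.0634), 3 (0.11) or 4 (0.122), *DIT1* without replicate 2 (0.0612), 3 (0.0637) or 4 (0.142), and *GDCH1* without any one of them (0.0663 to 0.149).

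**Figure D4:**
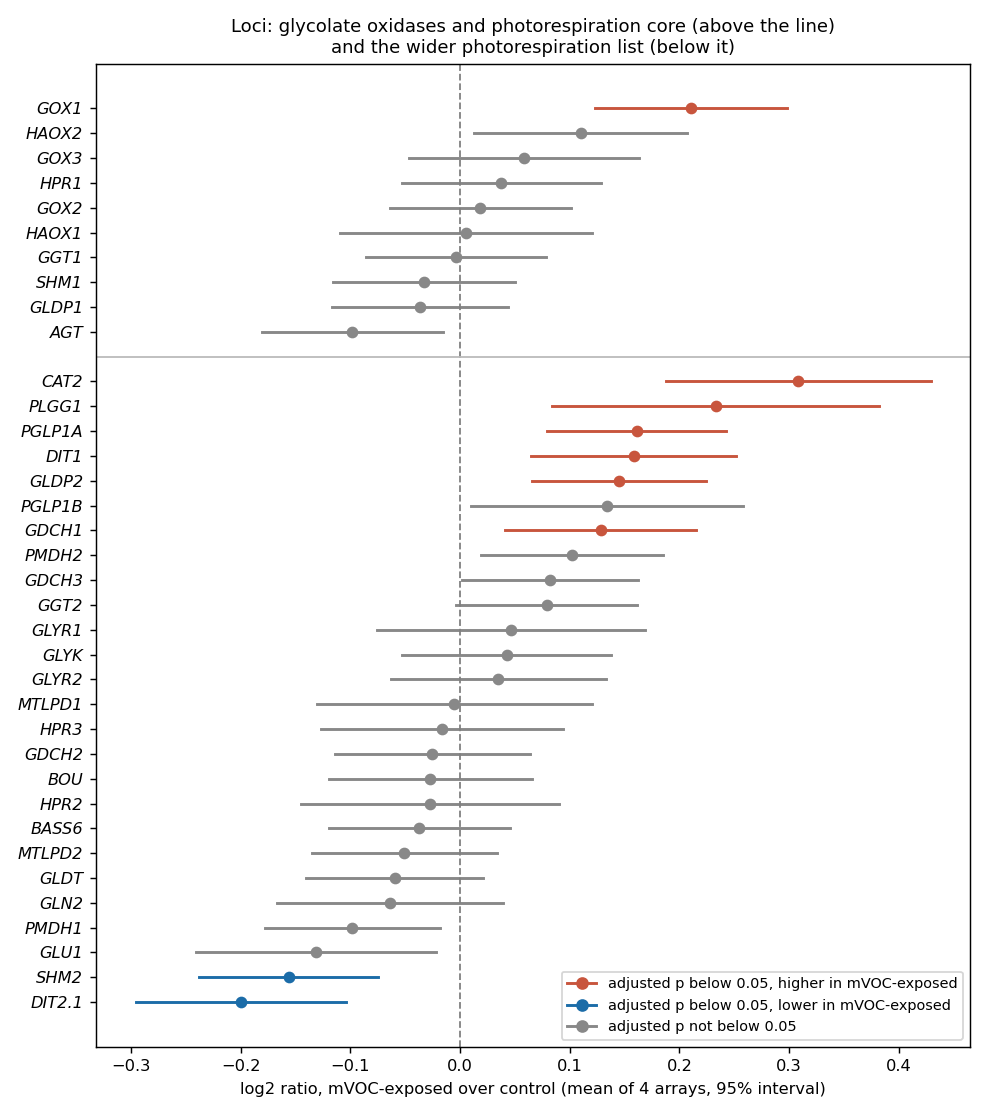
Log2 ratio of mVOC-exposed over control seedlings per locus (horizontal axis, mean of 4 arrays with the 95% interval of limma) for the 10 genes above the line and the 26 loci of the wider photorespiration list below it, in falling order within each part. *GOX1* at 0.21 and *CAT2* at 0.31 lie farthest to the right in their parts.

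Markers of green tissue moved as well. Of 12 loci of photosynthetic proteins, 8 (66.7%) passed, against 17.3% of all loci. Of the 8, 6 were higher and 2 lower in mVOC-exposed seedlings, and the median log2 ratio of the 12 was 0.14. The small subunit genes of Rubisco, *RBCS1A*, *RBCS2B* and *RBCS3B*, which are near copies of one another that probes may not separate, were at 0.48, 0.55 and 0.48, and those that fell were *LHCB1.1* at -0.12 and *LHCB2.1* at -0.28. The summed normalized intensity of the 12 loci ranged from 7075440 to 7808330 units in mVOC-exposed samples, against 5563660 to 5775390 in control samples, without overlap. This sum weighs the brightest probes most. *RBCS1A*, *RBCS2B* and *RBCS3B* gave 13, 5 and 4 of its 66 probes, at mean log2 intensities of 17.2 to 17.9. Of the 12 loci, 5 had a log2 ratio below 0. For the 25 probes of the photorespiration genes the sums were 650349 to 673987 units in mVOC-exposed samples and 616742 to 661223 in control samples, which overlapped. Of 12 root markers 0 rose and 2 (16.7%) fell, *EXPA7* (-0.57) and *EXPA18* (-0.15). Of all loci, 17.3% passed in either direction and 7.96% were lower. The summed intensity of the root markers overlapped between the groups, with 573949 to 638164 units in mVOC-exposed samples and 560349 to 640513 in control samples. Each root marker, among them the endodermal *CASP1*, was above background in both groups with at least 1 probe, as were all 12 markers of green tissue. Of 11 dry seed markers 1 rose and 6 fell, together 63.6%. Their summed intensities were 3099 to 3337 units in mVOC-exposed samples and 3612 to 4482 in control samples. *SESA5*, the marker that fell most, was above background in 0 of 4 mVOC-exposed and 4 of 4 control samples. The marker that rose was *OLE2*, at 0.26 (adjusted p = 0.0115 in limma), with 8 of 8 readings above background in each group. *CRU1*, which fell by 0.27, had 12 of 12 readings above background in each group. Replicate 4 stood apart here too, since the median log2 ratio of the dry seed markers was -0.27, -0.21, -0.30 and -0.025 in replicates 1 to 4, and the log2 ratio of *SESA5* was -2.20, -2.14, -2.45 and -0.40. The part of these shifts in the values of *GOX1*, *CAT2* and the other photorespiration genes was not tested.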

How the data were processed

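Expression was measured in 4 mVOC-exposed and 4 control samples of whole *A. thaliana* seedlings on 4 two-colour Agilent arrays. The authors deposited the output of Agilent Feature Extraction 11.5.1.1. It holds, for each spot, median intensities of the feature and its surroundings, a processed signal (an intensity that the software had corrected for background and dye) and a log10 ratio of Cy5 over Cy3. Readings of very bright spots were scaled up from a second, lower scan. Among member probes this held in both channels of every array for *GOX1* A_84_P167863 and A_84_P810875, *GOX2* A_84_P17007, and *GGT1* A_84_P17562, A_84_P810724 and A_84_P862364. The same was true of *AGT* A_84_P18210, *HPR1* A_84_P15273 and *SHM1* A_84_P12948. The table of the series that the authors deposited carries the same log10 ratios for replicates 2 to 4, and for replicate 1 the error of the ratio, a score that was not used.

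Median intensities were corrected with normexp (offset 50, fitted on all spots) and normalized by loess in limma 3.58.1 (R 4.3.3, with jsonlite 2.0.0 and version 1.17.8 of data.table). Control and outlier spots had no weight and were left out, and spots of a probe were averaged. The log2 ratios of 43603 probes, and the means of the probes of 29030 loci, were each fitted with an intercept alone (lmFit, eBayes), with Benjamini-Hochberg adjustment and a threshold of 0.05. Summed marker intensities followed Aquantile scaling. A locus was given for 38413 probes and none for 5190, and RefSeq held 28595 of the loci. The steps were also run on simulated data. The changes set there were larger than the mean log2 ratio of any member probe after normexp and loess. That run therefore does not show how well calls of the members' size are recovered.

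Samples were paired by their array: with group means removed, intensities correlated across probes at r of 0.442, 0.514, 0.245 and 0.411 within arrays and between -0.349 and 0.114 across arrays. Slide had a consensus correlation of 0.082. Groups came from the agent given for each channel. Free text attached to the samples speaks of stem cells, contradicts the organism, source and agent labels, and was not used. The members and lists were chosen with earlier results of these data known. Named were every member probe, every locus of the wider photorespiration list that passed, and *CAT2*; genes named in the closing section beyond these were picked with their values in view. No genome was used, so no coordinates are given. Alternatives covered background correction, normalization, the software's ratio, the deposited ratios, outlier spots, dim probes, the variance model, array weights, pairing, slide, single replicates and the probe that represents a locus.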

Additional observations from a re-analysis of the deposited data

Results flagged for a closer look

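In 1 of the 25 member probes and 2 of the 26 loci of the wider list, a single array lay far from the other 3, by a rule that chance alone meets in about 1 of 20 groups. The log2 ratio of *GGT1* probe A_84_P810742 was 0.096 in replicate 4, against -0.038 to -0.060 on the other arrays. *DIT2.1* was at -0.34 in replicate 3, against -0.14 to -0.17 on the others, and it was called with or without that replicate. *GLU1*, the ferredoxin-dependent glutamate synthase of ammonia recovery, was at -0.32 in replicate 2, against -0.055 to -0.084, and did not pass over the 4 arrays (adjusted p = 0.0949 in limma).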

How the results depend on the processing

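With normexp and loess, 5 of the 25 member probes, 1 of the 10 member loci, 8 of the 26 loci of the wider photorespiration list, 8 of the 12 green shoot loci, 2 of the 12 root loci and 7 of the 11 dry seed loci were called. These counts moved with the processing, and the cause was not tested. Plain background subtraction left 1 member probe, 0 member loci, 0 loci of the wider list, 4 green shoot loci and 1 root locus. Normexp with no offset and the ordinary test each left 0 in all 6 counts. Median centring called 18 member probes, 8 member loci, 18 loci of the wider list and 4 root loci. The scanner software's ratio called 6 member loci and 8 root loci, and the deposited table of replicates 2 to 4 called 2 member probes, 3 member loci, 4 loci of the wider list and 7 root loci. Without dim probes, 3 dry seed loci were called. *SESA1*, *SESA2*, *SESA5* and *PAP85*, called with normexp and loess, had no probe left under that filter and could not be called. On replicates 1 and 2 alone 0 loci of the wider list and 4 green shoot loci were called, and on replicates 3 and 4 alone 0 member loci and 1 root locus. With the brightest probe of each locus, 4 root loci were called. With each replicate left out, the counts were 2 to 6 member probes, 1 member locus, 2 to 5 loci of the wider list, 7 green shoot loci, 1 to 2 root loci and 5 to 7 dry seed loci. Over all probes, 7939 calls became 3352 with plain subtraction, 20 with no offset, 17200 with median centring, 13227 with the software's ratio, 3815 without the pairing and 6 with the ordinary test. Of all loci, 17.3% were called with normexp and loess, 8.04% with plain subtraction and 41.9% with median centring. The share was 30.5% with the software's ratio, 15.2% with the deposited table and 9.19% without the pairing. With a replicate left out it was 8.79% to 13.4%. On replicates 1 and 2 alone it was 11%, and on replicates 3 and 4 alone 14.1%. Without dim probes it was 24.7%, and with the brightest probe of each locus 18.6%.

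Without the pairing of the samples on an array (no replicate block), 2 member probes and 3 loci of the wider list were called, and the other 4 counts stayed within 1.5 times of those with the pairing.

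Signs of the log2 ratio turned as follows. Under median centring they were 0.47 and 0.21 for the *SHM1* probes A_84_P12948 and A_84_P848740, 0.45 for *HPR1* A_84_P15273, 0.38 and -0.13 for *GOX2* A_84_P17007 and A_84_P860874, and -0.11 for *HAOX1*. For *GLDP1* they were 0.25, 0.26 and 0.13 (A_84_P17658, A_84_P781455, A_84_P806627), for *AGT* 0.45, 0.18, 0.14 and 0.069 (A_84_P18210, A_84_P809992, A_84_P847441, A_84_P855812), for *GGT1* 0.18 and 0.26 (A_84_P810742, A_84_P862364), and 0.045 for *DIT2.1* and 0.016 for *SHM2*. The software's ratio gave -0.060 for *GGT1* A_84_P17562, -0.0080 for *GOX3* and 0.0021 for *GLDP1* A_84_P806627. In the deposited table these were -0.073 for *GGT1* A_84_P17562, -0.026 for *GOX3*, 0.0083 for *HPR1* A_84_P15273 and 0.034 for *SHM1* A_84_P848740. Array weights gave 0.0098 for *GGT1* A_84_P810742, -0.0050 for *HAOX1* and 0.012 for *HPR1* A_84_P15273, the last also at 0.012 without spots marked for background. Replicates 1 and 2 alone gave 0.034 for *AGT* A_84_P18210, 0.024 for *GLDP1* A_84_P806627, 0.0018 for *GOX2* A_84_P17007, -0.0075 for *GOX3*, -0.0022 for *HAOX1* and 0.045 for *SHM1* A_84_P12948. Replicates 3 and 4 alone gave 0.080 for *AGT* A_84_P809992, 0.029 for *GGT1* A_84_P810742, 0.022 for *GLDP1* A_84_P781455 and 0.012 for *HPR1* A_84_P15273.

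With each replicate left out, those that turned ranged from -0.045 to 0.045 (*HPR1* A_84_P15273), -0.080 to 0.012 (*SHM1* A_84_P848740), -0.070 to 0.0084 (*SHM1* A_84_P12948), -0.098 to 0.052 (*AGT* A_84_P809992), -0.10 to 0.0031 (*AGT* A_84_P18210), -0.051 to 0.00082 (*GGT1* A_84_P810742), -0.11 to 0.018 (*GOX2* A_84_P17007) and -0.049 to 0.065 (*HAOX1*). The *GOX1* probes kept their sign under all 19 other settings, and keeping outlier spots changed no call among the member probes, the named loci and the counts of the member and marker lists. Probes near background, such as A_84_P860874, have the least certain ratios.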

Other observations

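Genes for the same step, or for related proteins such as the dicarboxylate carriers, had log2 ratios of different size or sign. The P proteins of glycine decarboxylase were at -0.037 ± 0.026 for *GLDP1* and 0.15 ± 0.012 for *GLDP2* on the log2 scale (SD, n = 4), the serine hydroxymethyltransferases at -0.033 ± 0.044 for *SHM1* and -0.16 ± 0.034 for *SHM2*, and the chloroplast dicarboxylate carriers at 0.16 ± 0.084 for *DIT1* and -0.20 ± 0.092 for *DIT2.1*. With the probes of a locus averaged, the log2 ratios of the genes of a pair did not overlap over the 4 arrays. *SHM2*, *DIT1* and *DIT2.1* had 1 probe each, so nothing was averaged for them. The share of all pairs of loci that separate in this way was not counted. Under median centring *SHM2* and *DIT2.1* turned to 0.016 and 0.045. Single probes did overlap: *GLDP2* A_84_P14502, at -0.074 to 0.010, lay within the range of the *GLDP1* probes, and *SHM1* A_84_P848740, at -0.20 in replicate 1, within that of *SHM2*. The differences were not tested. The peroxisomal malate dehydrogenases were at -0.098 ± 0.018 for *PMDH1*, lower on 4 of 4 arrays, and 0.10 ± 0.044 for *PMDH2*, higher on 4 of 4, and neither passed over all loci (adjusted p = 0.0877 and 0.0889 in limma). In *GLN2* of the wider list, probe A_84_P12110 was at 0.18 and A_84_P811281 at -0.31 (adjusted p = 0.0235 and 0.00291 in limma). Averaged over its probes, the *GLN2* locus did not pass (adjusted p = 0.378). The pairs and *GLN2* were picked with the values in view.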
